A study of Homo sapiens with 3 samples.

Results

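The 78 genes described here encode the proteins of the mitochondrial ribosome that carry the symbols MRPL or MRPS and a number. They were chosen by name: the Ensembl identifiers of the count table were matched to GENCODE release 29, and protein-coding genes whose symbol starts with MRPL or MRPS and a digit were kept, a rule that uses no measured value. They are 78 of the 15808 genes of the table, of which 15668 were matched to the annotation and 12460 were protein-coding. Of the 78, 49 have MRPL symbols and 29 have MRPS symbols, and they lie on 21 chromosomes.

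All values come from 3 RNA-seq libraries of 1 labelled group. The cells were OCI-Ly10, an established line of activated B cell-like diffuse large B cell lymphoma, treated for 6 hours with MZ1, a bivalent molecule that brings BET bromodomain proteins to the VHL ubiquitin ligase and so marks them for degradation. No untreated library was analysed here, so the values are levels in MZ1-treated cells and differences between replicate libraries, and the effect of MZ1 is not among them. Whether the replicates are separate cultures is not labelled, so their differences may be technical. The p-values below set those differences against counting noise and take in no other spread.

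Mitochondria keep their own ribosomes, which translate the few messenger RNAs of the mitochondrial genome into core subunits of the respiratory chain and of ATP synthase. The ribosomal RNAs are transcribed inside the organelle, whereas every ribosomal protein is encoded in the nucleus, made in the cytosol and imported. Some of these proteins descend from bacterial ribosomal proteins and others are found only in mitochondrial ribosomes, and lymphomas of the diffuse large B cell type differ among themselves in how much they rely on mitochondrial respiration.

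The 3 libraries held 5474462, 1441246 and 1314812 counts. CPM below are counts scaled to a common library size after TMM normalisation (the usual CPM), so that 1 count was worth 0.20, 0.629 and 0.767 CPM in replicates 1, 2 and 3. Of the B cell markers, MS4A1, which encodes a B cell surface protein, had 4243, 994 and 963 counts, and CD79A, a subunit of the B cell receptor complex, had 2184, 562 and 1177 counts. Of 6 T cell markers, 3 were in the table and none reached 1 CPM in all libraries, with summed levels of 20.2, 1.26 and 4.6 CPM. CD5 gave 17.4 CPM of the first sum, and CD5 and CD247 were level in the other libraries. Of 6 myeloid markers, 4 were in the table, with summed levels of 62.8, 44.6 and 46.0 CPM, mainly MPO and ITGAM.

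The stretches around the gene starts show letters that several members have in common. RefSeq (GRCh38.p14) windows from 250 bases before to 50 bases after the start were held for 69 of the 78 members. In them 6 motifs were searched on both strands. Starts in the motif descriptions are those of RefSeq, and the GENCODE start of a gene can lie elsewhere. AAGATGGCG, the letters of a YY1 motif, was found in 13 of the 69 windows (18.8%), against 4.08% of 9945 windows of protein-coding genes of the table and 1.85% of all 27305 windows. Of its 14 matches in members, 10 began after the start, and the median position was +9.5, counted from +1 at the first transcribed base. The windows below are shown because they place the same 9 letters, in capitals, just after the RefSeq start of genes of both subunits. Among them are 3 of the genes with the lowest levels (MRPL46, MRPL38 and MRPS24). The 9 letters contain ATG, the letters of a start codon. Whether the matches after the start lie on start codons was not tested.
MRPS18B (chr6:30617853-30617882, plus strand): ggcgtacgtcAAGATGGCGgcgtctgtatt
MRPS10 (chr6:42217833-42217862, minus strand): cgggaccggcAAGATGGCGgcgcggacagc
MRPS18A (chr6:43687763-43687792, minus strand): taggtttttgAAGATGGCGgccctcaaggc
MRPL42 (chr12:93467512-93467541, plus strand): ggattgaaacAAGATGGCGggttcgtggtg
MRPS30 (chr5:44808950-44808979, plus strand): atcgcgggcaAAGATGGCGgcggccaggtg
MRPL46 (chr15:88467361-88467390, minus strand): gggagaacgaAAGATGGCGgcgcccgtaag
MRPL38 (chr17:75904859-75904888, minus strand): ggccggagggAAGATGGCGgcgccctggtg
MRPS24 (chr7:43869479-43869508, minus strand): cgcttggcccAAGATGGCGgcctccgtgtg

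CCGGAAGT, the letters of an ETS family motif, was found in 11 of the 69 windows (15.9%), against 9.09% of the protein-coding genes of the table and 4.44% of all windows. Of its 13 matches, 12 lay before the RefSeq start, with a median position of -39. The windows below are shown for the highest member by level, for another of the 8 highest, for a member that varied widely between libraries and for a member with no count. Capitals mark the motif, which stands as its reverse complement in MRPL51 and MRPS34. By GENCODE positions the printed match of MRPL3 lies before the gene, and those of MRPL51, MRPS34 and MRPL53 lie inside the annotated gene.
MRPL51 (chr12:6493364-6493393, minus strand): ggcgctccaaaACTTCCGGcaggcggaccg
MRPL3 (chr3:131502985-131503014, minus strand): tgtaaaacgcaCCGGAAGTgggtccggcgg
MRPS34 (chr16:1773136-1773165, minus strand): ctcttccggtgACTTCCGGccggaccgctg
MRPL53 (chr2:74472734-74472763, minus strand): gcagccggcggCCGGAAGTctatcccgcag

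The ETS family and YY1 matches fell in 22 different members, with MRPL38 and MRPL52 holding both. GCATGCGC, the core of the motif of NRF1, a transcription factor of nuclear genes for mitochondrial proteins, was found in 6 windows (8.70%, against 5.60% of the protein-coding genes of the table and 3.27% of all windows). One of these was MRPS18B, where the match lies 23 bases before the RefSeq start. Its window is printed here because the gene also holds the YY1 letters. In GENCODE the gene starts at chr6:30617709, so there the match lies inside it.
MRPS18B (chr6:30617806-30617835, plus strand): agtttcctgaaGCATGCGCagttgcctttc
TATAAA, the TATA box, was found in 2 windows (2.90%, against 12% of all windows), CCAAT in 20 (29%, against 35.7%) and GGGCGG, the letters bound by SP factors, in 42 (60.9%, against 44.6%). Among the protein-coding genes of the table these 3 shares were 5.78%, 37.0% and 69.2%. A match is a description of the letters and not a measured binding site. The factors themselves were in the table: YY1 had 162, 60.3 and 81.3 CPM, the ETS factor GABPA 63.8, 80.4 and 53.7 CPM, and NRF1 16.2, 13.8 and 19.9 CPM.

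**Figure D1:**
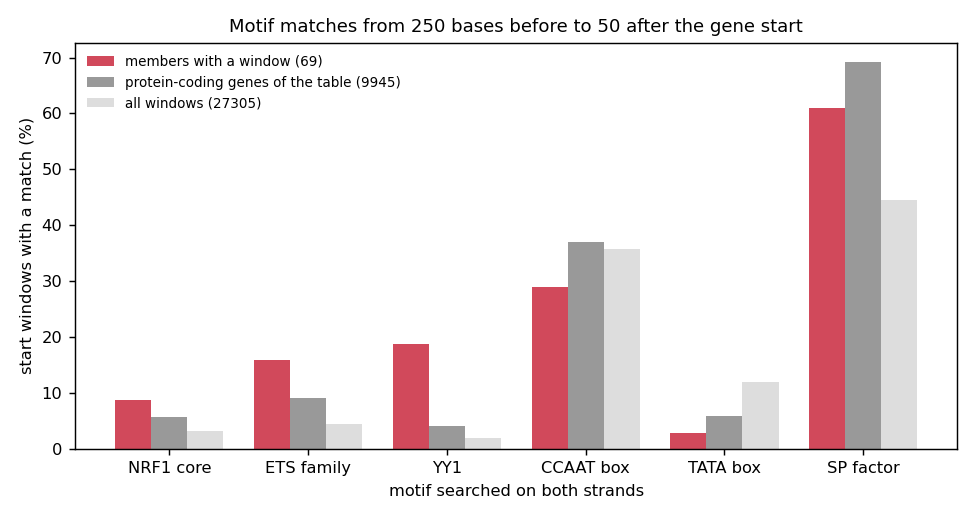
Share of start windows (vertical axis, %) with a match to each of 6 motifs (horizontal axis) for members, protein-coding genes of the table and all windows. The YY1 bar of the members stands at 18.8% against 4.08% of the protein-coding genes and 1.85% of all windows. The TATA box bar stands at 2.90% against 5.78% and 12%.

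Nearly all members were detected. Of the 78, 72 (92.3%) reached 1 CPM in every library, against 78% of the protein-coding genes of the table, 96.5% of 85 cytosolic ribosomal protein genes and 91.2% of 80 nuclear genes of the respiratory chain. By mean level, 4 members reached 100 CPM, 62 lay between 10 and 100 CPM and 12 lay below 10 CPM. Their counts together made up 0.343% of replicate 1 (exact 95% binomial interval 0.339 to 0.348%), 0.264% of replicate 2 (0.256 to 0.273%) and 0.311% of replicate 3 (0.302 to 0.321%). These intervals cover counting error only. Reads can be PCR copies of 1 molecule.

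Levels of different genes were compared per kilobase of merged exons. The median over the members was 11.0 CPM per kb, with quartiles of 5.18 and 21.7. The median of protein-coding genes was 2.65, that of the respiratory chain genes 28.2 and that of the cytosolic ribosomal protein genes 327 CPM per kb. The median of the members therefore lay between those of the protein-coding genes and of the nuclear respiratory chain genes. The quartiles of the respiratory chain genes were 12.9 and 58.3, so the 2 groups overlapped. Cytosolic ribosomal protein genes have many near-identical copies, and their counts depend on how shared reads were assigned.

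**Figure D2:**
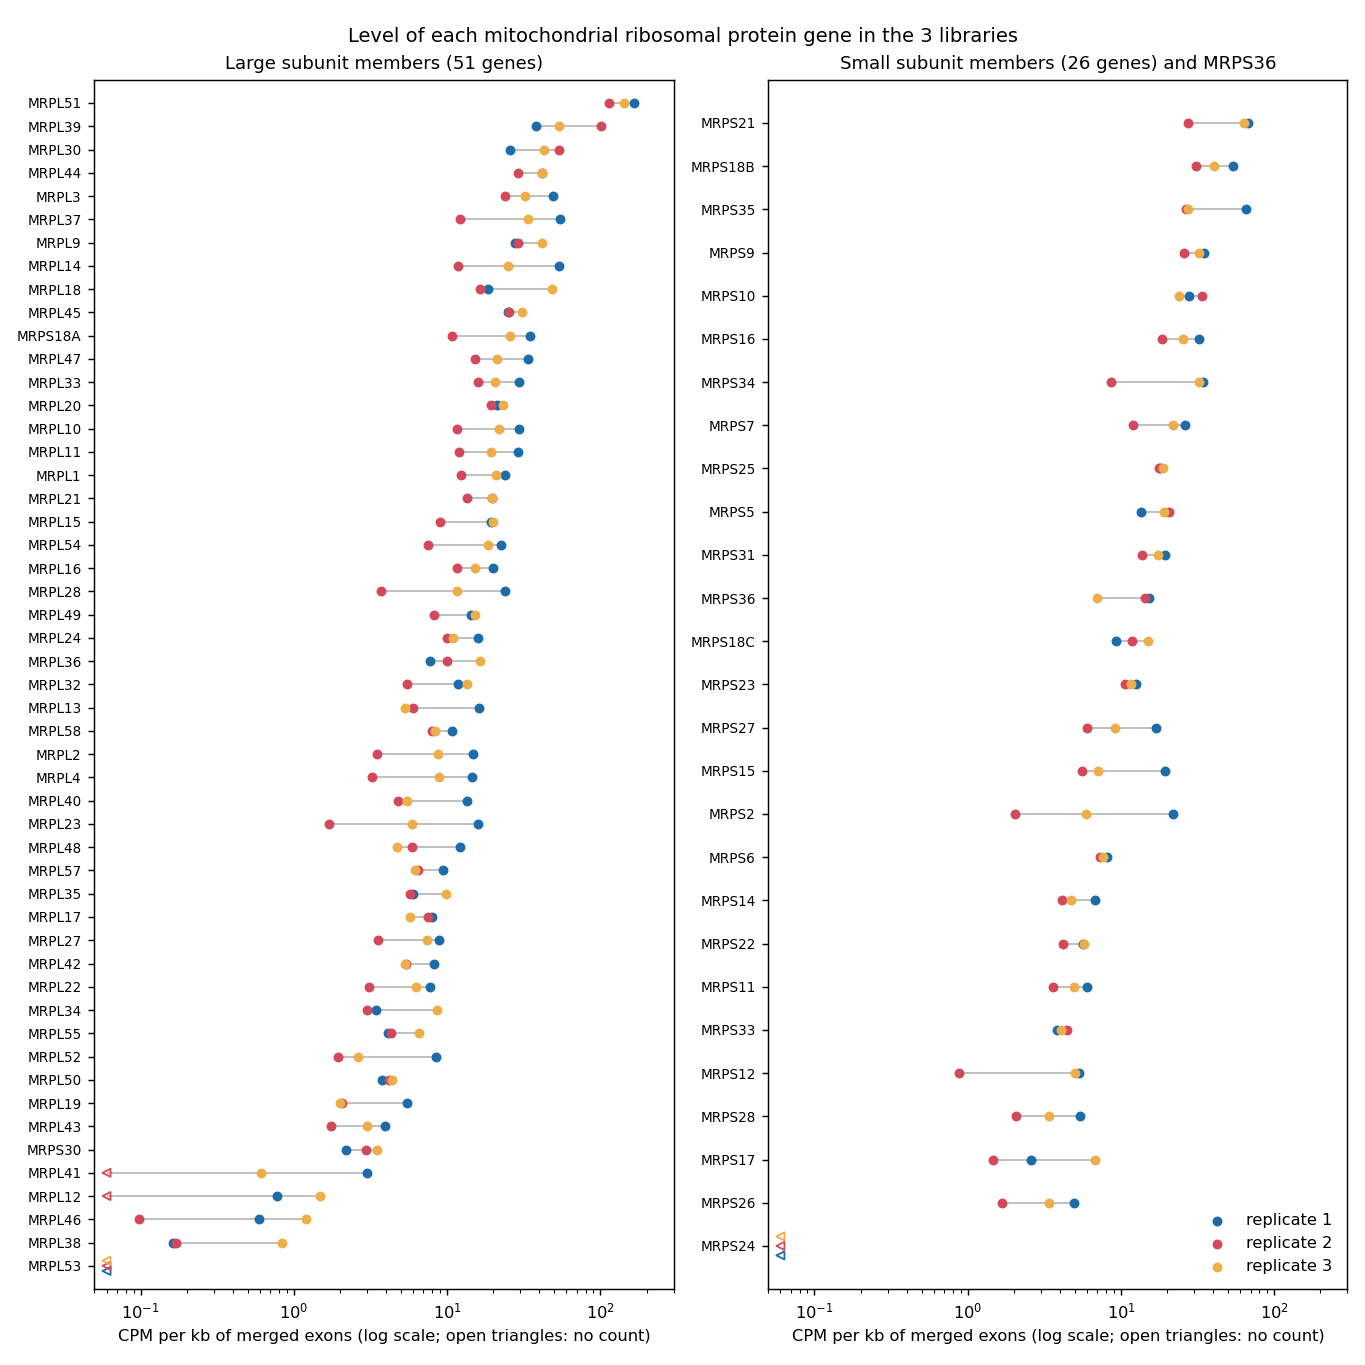
Level of each member in CPM per kb of merged exons (horizontal axis, log scale), with 1 point per library, the large subunit on the left, and the small subunit with MRPS36 on the right. Grey lines join the lowest and highest library, and open triangles mark libraries with no count. MRPL51 stands at the top in all 3 libraries, and MRPL53 and MRPS24 have no count in any.

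The large subunit was represented by 51 members, including MRPS18A and MRPS30, which carry MRPS symbols but lie in the large subunit. The highest was MRPL51 (ENSG00000111639.6, chr12:6491886-6493841, minus strand), a protein found only in mitochondrial ribosomes. It had 1278, 279 and 287 counts, or 256, 175 and 220 CPM, and its level was 140 ± 25.9 CPM per kb (SD, n = 3). Of its 1551 merged exon bases, 486 overlap exons of NCAPD2 on the opposite strand. NCAPD2 had 1466, 241 and 181 counts, and reads of the pair may not be separable. MRPL51 ranked first also when the length of the principal transcript was used, but the order below it changed. Of the 8 highest by merged exons, 3 (MRPL51, MRPL39 and MRPS21) were among the 8 highest by principal transcript. MRPL39 went from rank 2 to 5, MRPL30 from 5 to 13 and MRPL44 from 7 to 17, while MRPL20 went from 21 to 2, MRPL21 from 28 to 3 and MRPS5 from 27 to 4. Replicate 1 was highest and replicate 2 lowest, by 1.46-fold (exact binomial test, adjusted p = 1.7e-08).

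The second by merged exons, MRPL39, another mitochondria-specific protein, behaved differently between libraries. It had 45.6 CPM in replicate 1, 121 CPM in replicate 2 and 64.4 CPM in replicate 3. Replicate 2 was 2.65-fold above replicate 1 (exact binomial test, adjusted p = 6.7e-21), and it was the 1 member called lower in replicate 3 than in replicate 2. MRPL30, the homologue of a bacterial protein, showed the same order for replicates 1 and 2, with 74.4, 155 and 125 CPM. MRPL44, which has a fold related to ribonuclease III, had 72.6, 50.9 and 72.9 CPM, so that replicates 1 and 3 were alike to within 1 CPM. MRPL3, the homologue of the bacterial protein that reaches towards the peptidyl transferase centre, had 132, 64.7 and 87.5 CPM.

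The 30 large-subunit members with bacterial homologues had a median of 12.7 CPM per kb, from 0.757 for MRPL12 to 40.8 for MRPL30. The 20 mitochondria-specific ones had a median of 7.43, from 0 for MRPL53 to 140 for MRPL51. The small subunit had 26 members. The 15 with bacterial homologues had a median of 9.95 CPM per kb, from 0 for MRPS24 to 52.6 for MRPS21. The 9 mitochondria-specific ones had a median of 11.6, from 3.35 for MRPS26 to 39.8 for MRPS35. The medians of the 4 lists lay closer together than the members within any of them.

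As whole subunits the levels were close. The median log2 CPM per kb of the large subunit minus that of the small subunit was -0.04, -0.09 and 0.07 in replicates 1, 2 and 3, a mean of -0.02 ± 0.08 (SD, n = 3). The difference was smaller than its spread between libraries, and its sign was not the same in all of them. With principal transcript lengths it was -0.12, and among members with no exon overlap on the opposite strand it was -0.21.

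MRPS21, the homologue of a small protein of the bacterial platform, had 111, 44.6 and 104 CPM. Replicates 1 and 3 were close, and replicate 2 lay 2.48-fold below replicate 1 (exact binomial test, adjusted p = 7.9e-15). MRPS35, mitochondria-specific, had 129, 52.8 and 54.5 CPM, so that replicate 1 alone was high. MRPS26, the lowest of its list, had 28, 3 and 5 counts, or 5.60, 1.89 and 3.84 CPM. A chi-square test over its libraries found no difference beyond counting noise (adjusted p = 0.19). With so few counts a difference could go undetected.

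Mammals have 3 proteins related to bacterial S18, of which MRPS18B and MRPS18C lie in the small subunit and MRPS18A in the large one. MRPS18B was the highest per length at 41.5 ± 11.6 CPM per kb (SD, n = 3), with MRPS18A at 23.7 ± 12.1 and MRPS18C at 12 ± 2.83. Per kb of the principal transcript MRPS18B was again the highest at 51.2 CPM per kb, but MRPS18C, at 35.6, lay above MRPS18A, at 28.7. Exons on the opposite strand overlapped 1956 of the 4866 merged exon bases of MRPS18C and 604 of the 1284 of MRPS18A. MRPS18B had no such overlap. MRPS18A had 44.6, 13.8 and 33.0 CPM. MRPS18B had 101, 57.8 and 75.9 CPM, in the same order of libraries. MRPS18C had 45.4, 57.2 and 72.9 CPM, with replicate 1 the lowest, and its higher level in replicate 3 than in 1 passed the exact binomial test (adjusted p = 6.8e-04). The GC content of the longest transcript was 57.3% for MRPS18A, 51.2% for MRPS18B and 38.9% for MRPS18C.

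MRPS36 carries a ribosomal symbol, but its product is known as a subunit of the 2-oxoglutarate dehydrogenase complex. It had 23.4, 22 and 10.7 CPM. Replicates 1 and 2 were alike, and replicate 3 was lower than replicate 1 (14 against 117 counts, exact binomial test, adjusted p = 0.0093).

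The members with the lowest levels had few counts or none. MRPS24 and MRPL53 had no count in any library, and the limit that 0 counts set (3 counts) was 0.60 CPM in replicate 1, 1.89 in replicate 2 and 2.30 in replicate 3. MRPL12, the homologue of the bacterial stalk protein that recruits translation factors, had 4, 0 and 2 counts. MRPL38, a protein of the central protuberance, had 3, 1 and 4 counts. MRPL46 had 19, 1 and 10 counts. MRPL41 had 19, 0 and 1 counts. These 6 are the members that did not reach 1 CPM in every library, and their proteins are structural parts of the ribosome.

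In the annotation, 5 of these 6 shared much of their sequence with another gene on the same strand. Exons of other same-strand genes covered 85.7% of the principal transcript of MRPS24, all of it by the read-through gene URGCP-MRPS24, and 71.1% of MRPL46, 68.2% of MRPL12, 67.8% of MRPL38 and 52.3% of MRPL53. MRPL41 had no such cover, and its longest transcript had the highest GC content of the members (71.9%). MRPS28, with 55.4% cover, had 49, 6 and 8 counts. The 6 members over 50% covered had a median of 7 counts summed over the libraries, and 4 of them had 10 or fewer. The 65 members with no cover had a median of 300, and the lowest of them had 20.

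The same direction held over the table. Protein-coding genes with no same-strand cover had a median summed count of 122, and 13.8% of them had 10 or fewer counts. For the 311 genes with over 50% cover, the median was 25 and the share 31.5%. The sources used here do not give how reads shared by 2 genes were counted, and the part of such counting in the low values was not tested. The levels of these members are uncertain for that reason.

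**Figure D3:**
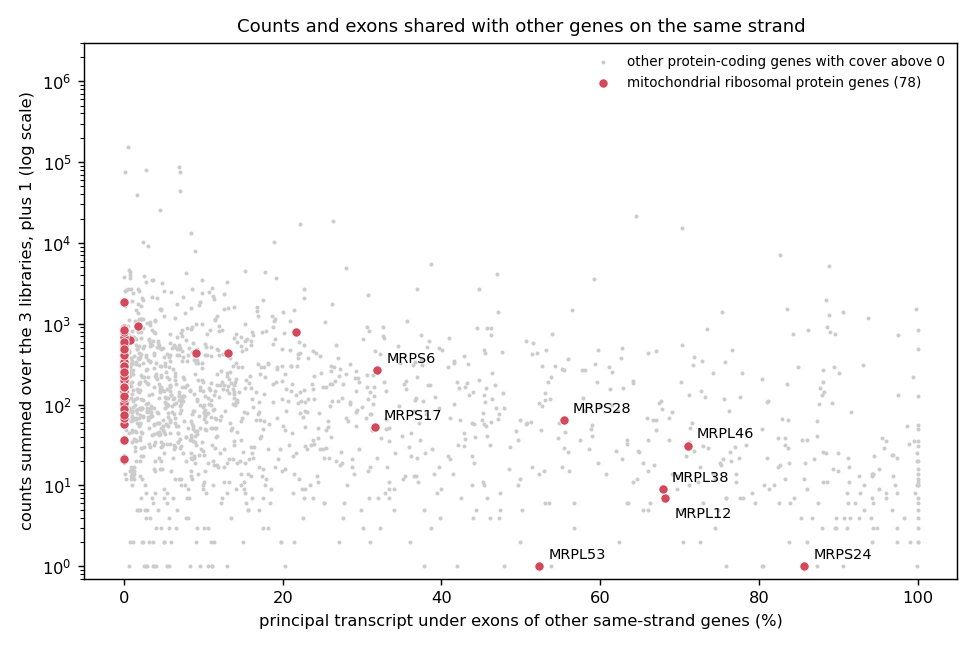
Counts summed over the 3 libraries, plus 1 (vertical axis, log scale), against the share of the principal transcript under exons of other same-strand genes (horizontal axis, %), for the 78 members (red) and for other protein-coding genes with cover above 0 (grey). The 6 members to the right of 50% have 0 to 63 counts.

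Of the 78 members, 73 had a mean count of at least 10 and entered the tests. The 5 left out were MRPL12, MRPL38, MRPL41, MRPL53 and MRPS24. A chi-square test asked whether the 3 counts of a gene differed by more than counting noise, with p-values adjusted over all 10016 genes tested. It called 53 of the 73 members (72.6%), against 67.2% of all genes, a share near the background. Most genes of the table differed between these libraries by more than counting noise, and members did so about as often. Of the large-subunit members with bacterial homologues 26 of 29 were called, of the mitochondria-specific ones 11 of 17, and of the small-subunit ones 9 of 14 and 3 of 9. Members with few counts can differ without being called.

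The direction of the differences stood further from the background, by exact two-sided binomial tests of library pairs with p-values adjusted over all genes tested at 0.05. In replicate 2, 44 of 73 members (60.3%) were lower than in replicate 1, against 33.8% of all genes called lower, and 3 (4.11%) were higher, against 23.6%. In replicate 3, 23 members (31.5%) were lower than in replicate 1, against 25.9%, and 10 (13.7%) were higher, against 20.5%. Between replicates 3 and 2, 25 members (34.2%) were higher in replicate 3, against 17.7% of all genes, and 1 (1.37%) was lower, against 10.1%. These 3 comparisons share libraries, so replicate 2 enters both the first and the last. They compare libraries and not conditions. Calls also depend on counts. At a mean count of at least 50, 71.9% of 57 members were lower in replicate 2 than in 1, against 44.2% of 5707 genes.

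The median log2 difference of replicate 2 minus 1 was -0.80 over the 73 members and -0.17 over all genes tested. It was -2.07 over the cytosolic ribosomal protein genes and -1.65 over the respiratory chain genes. For replicate 3 minus 1 the medians were -0.28 for members, -0.11 for all genes, -0.94 for cytosolic ribosomal protein genes and -1.15 for respiratory chain genes. For replicate 3 minus 2 they were 0.47, 0.09, 0.85 and 0.36. In replicate 2 the members thus lay below replicate 1 by more than the median gene and by less than the other 2 groups. Of the 66 members with a mean of at least 10 CPM, 48 (72.7%) were lowest in replicate 2, against 40.5% of all such genes, and 46 (69.7%) were highest in replicate 1, against 43.1%.

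**Figure D4:**
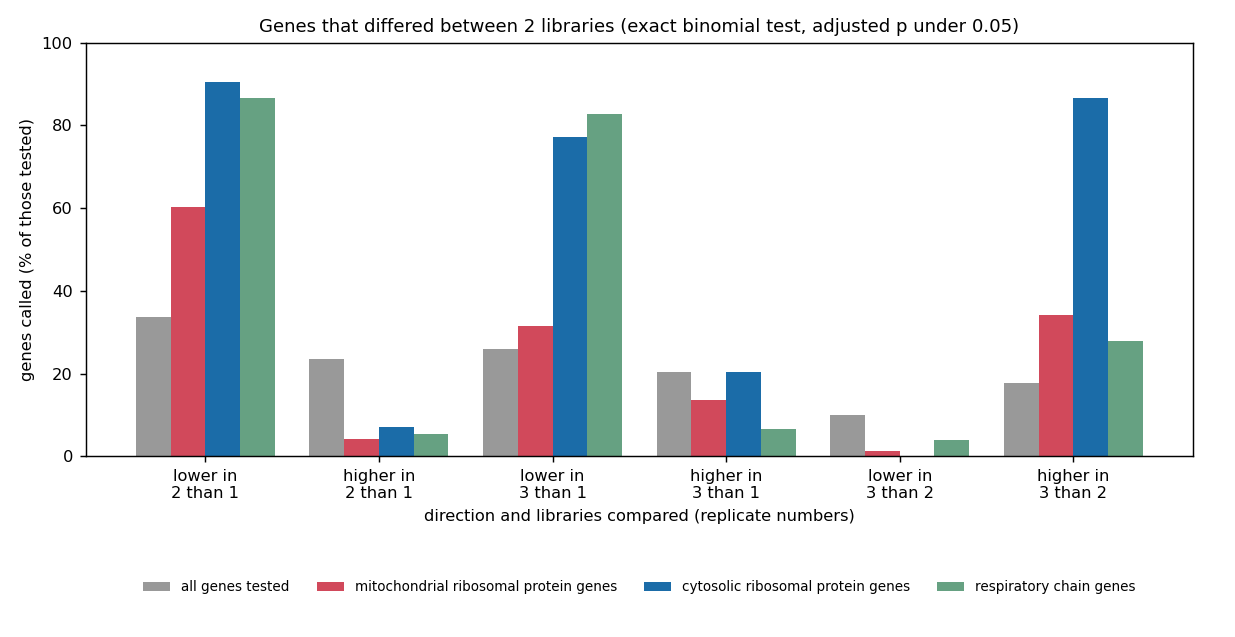
Share of genes called in each direction (vertical axis, % of those tested) for the 3 pairs of libraries (horizontal axis), for all genes tested, members, cytosolic ribosomal protein genes and respiratory chain genes. Members were called lower in replicate 2 than in 1 at 60.3%, against 33.8% of all genes and 90.4% of the cytosolic ribosomal protein genes.

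The widest spread belonged to MRPS2, the homologue of bacterial S2. It had 270, 8 and 19 counts, or 54.0, 5.03 and 14.6 CPM. Replicate 1 lay 10.7-fold above replicate 2 (exact binomial test, adjusted p = 8.6e-22), and replicate 3 lay between them. MRPL23, a protein at the exit of the peptide tunnel, followed with 47.6, 5.03 and 17.6 CPM. MRPL28 had 72.8, 11.3 and 35.3 CPM, and MRPL4, whose bacterial homologue lines the tunnel, had 58.8, 13.2 and 36.1 CPM.

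MRPL37 had 140, 30.8 and 85.9 CPM, with replicate 1 4.53-fold above replicate 2 (exact binomial test, adjusted p = 1.2e-35). MRPS34 had 37.6, 9.43 and 35.3 CPM. In all 6 of these members replicate 1 was highest and replicate 2 lowest. The GC content of their longest transcripts ran from 53.0% in MRPL37 to 64.9% in MRPL4.

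At the other end were MRPS25, MRPS6, MRPS33 and MRPS23, all of the small subunit. MRPS25 had 97.2, 94.9 and 100.5 CPM, and the chi-square test found no difference beyond counting noise (adjusted p = 0.90). MRPS6, the homologue of bacterial S6, had 35.0, 31.4 and 33.0 CPM. MRPS33 had 19.99, 23.3 and 21.5 CPM, and MRPS23 had 80.2, 67.9 and 74.4 CPM. None of these 4 passed the chi-square test. At the counts of MRPS6 and MRPS33 small changes could go undetected. Their GC content lay between 41.0% and 47.2%. Exons of other same-strand genes covered 31.9% of the principal transcript of MRPS6. On the opposite strand, exons of NR2C2 overlapped 1197 of the 5383 merged exon bases of MRPS25. NR2C2 had 56.0, 71.6 and 69.8 CPM, and reads of that pair may not be separable.

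Only 3 members were called higher in replicate 2 than in 1: MRPL39, MRPL30 and MRPS5. MRPS5, the homologue of bacterial S5, had 91.2, 138 and 128 CPM. MRPL18, whose bacterial homologue binds a small ribosomal RNA, had 25.4, 22.6 and 66.7 CPM. Replicate 3 lay 2.63-fold above replicate 1 for MRPL18 (exact binomial test, adjusted p = 2.6e-10). Both genes were chosen with their values in view.

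The differences of replicate 2 from the other libraries were related to GC content in members as in other genes. Across the 66 members of at least 10 CPM, Spearman's rho of GC content with the log2 difference of replicate 2 minus 1 was -0.39, beside -0.43 across 7494 genes. For replicate 3 minus 2 it was 0.51 beside 0.47. For replicate 3 minus 1 it was weak, -0.15 beside -0.14. These are across genes that share their libraries and are not independent replicates. The 13 members of at least 55% GC had a median difference of replicate 2 minus 1 of -1.94, beside -1.13 for all genes of that GC content. The 28 members under 45% GC had a median of -0.55, beside 0.23 for all such genes. Within 8 bins of equal gene number, the members' median lay below that of all genes in 7 bins and was 0.21 in both in the third bin. After the median of all genes in the same bin was taken from each difference, the median of the 66 members was -0.54, beside -0.80 before. What differed between the libraries to give this relation with GC content was not tested.

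**Figure D5:**
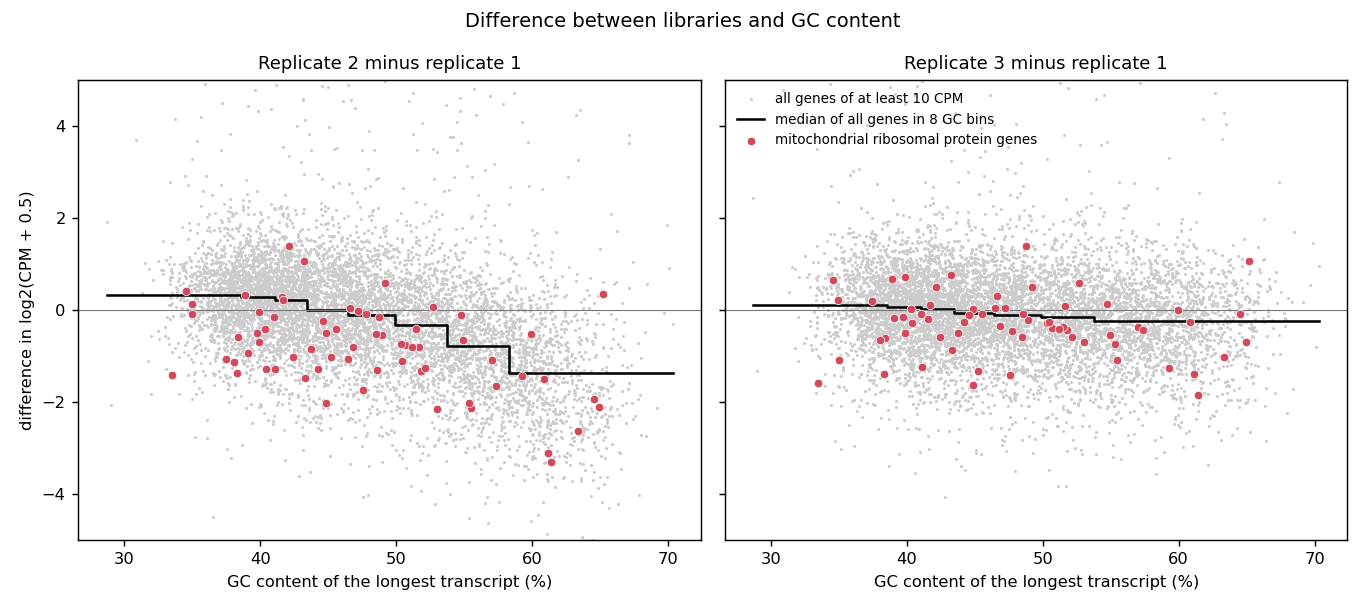
Difference in log2(CPM + 0.5) between libraries (vertical axis) against the GC content of the longest transcript (horizontal axis, %), for replicate 2 minus 1 and replicate 3 minus 1. Grey points are all genes of at least 10 CPM, the black line is their median in 8 GC bins, and red points are the 66 members of that level. A few grey points lie beyond the axis limits. In the left panel most red points lie below the black line, and it falls to -1.37 in the last bin.

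Many members start close to another gene. A protein-coding gene on the opposite strand began from 1000 bases before to 500 bases after the start of 25 of the 78 members (32.1%), against 15.1% of the protein-coding genes of the table, 21.2% of the cytosolic ribosomal protein genes and 24 of the 80 respiratory chain genes. One pair joins a member of each subunit: the annotated starts of MRPL46 and MRPS11 lie 34 bases apart. MRPS11 had 34.0, 20.1 and 27.6 CPM, and MRPL46 had 3.80, 0.63 and 7.67 CPM. Per kb of merged exons the mean levels were 4.84 for MRPS11 and 0.627 for MRPL46. Per kb of the principal transcript they lay closer, at 7.48 and 3.96. Exons of other same-strand genes covered 71.1% of the principal transcript of MRPL46, so its level is uncertain. The 33 bases between them, which hold none of the 6 motifs, are printed because both genes start at their edges.
MRPL46 to MRPS11 (chr15:88467420-88467452, minus strand): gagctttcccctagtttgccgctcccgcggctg
MRPL47 and MRPL36 share such starts with genes of respiratory complex I. MRPL47 had 46.0, 20.7 and 29.2 CPM, and its neighbour NDUFB5, which starts 36 bases away, had 115, 52.2 and 82.8 CPM, both highest in replicate 1 and lowest in replicate 2. MRPL36 had 10.8, 13.8 and 23.0 CPM, and NDUFS6, 34 bases away, had 173, 102 and 122 CPM. MRPL30, higher in replicate 2, starts 21 bases from MITD1, which had 44.8, 40.9 and 50.6 CPM. These neighbours were picked for their closeness and named after their values were seen.

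Exons of 29 members (37.2%) overlapped exons on the opposite strand, against 41.1% of the protein-coding genes. The sources used here do not give whether counting used strand, so reads of such pairs may not be separable. The 7 non-coding genes opposite members that were in the table summed to 9.20, 25.1 and 47.6 CPM, lowest in replicate 1. The median log2 difference of replicate 2 minus 1 was -1.08 over the 28 tested members with an overlap and -0.74 over the 45 without.

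Other parts of the mitochondrial translation system were described from lists of known genes. The 5 mitoribosomal proteins with other symbols all reached 1 CPM in every library. DAP3, a GTP-binding protein of the small subunit, had 185, 121 and 184 CPM. AURKAIP1 had 53.2, 14.5 and 45.3 CPM, GADD45GIP1, of the large subunit, had 27.0, 17.0 and 63.7 CPM, and CHCHD1 had 22.8, 16.3 and 36.1 CPM. PTCD3, a pentatricopeptide repeat protein, had 36.4, 30.2 and 35.3 CPM and was the 1 of the 5 that did not vary beyond counting noise. Of the 5, 3 were lower in replicate 2 than in 1, against 33.8% of all genes, and 4 were higher in replicate 3 than in 2, against 17.7%.

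The ribosomal RNAs were both lower in replicates 2 and 3 than in replicate 1. MT-RNR2, the RNA of the large subunit, had 251548, 53069 and 42362 counts, and MT-RNR1, that of the small subunit, had 18716, 3041 and 1584 counts. In CPM, MT-RNR1 stood at 3742, 1911 and 1215. Their levels depend on how far ribosomal RNA was removed from each library, which was not tested, and they cannot be set beside those of the proteins as a stoichiometry.

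Of the assembly factors, 26 of 28 listed symbols were in the table and all reached 1 CPM in every library. Of the 25 tested, 13 varied, against 67.2% of all genes. In replicate 2, 9 were lower than in 1, against 33.8%, and 2 were higher, against 23.6%. These shares lay near or below the background. ERAL1, a chaperone of the small-subunit RNA, had 50.4, 28.3 and 51.4 CPM, LETMD1 had 111, 94.3 and 69 CPM, and MTG1, a GTPase of large-subunit assembly, had 4.6, 1.89 and 3.84 CPM, with 78.4% of its principal transcript under exons of other same-strand genes. Of 17 translation factors, 10 varied, and 4 were lower and 3 higher in replicate 2 than in 1, all below the same background shares. TUFM, the elongation factor that brings in aminoacyl-tRNA, had 495, 246 and 351 CPM, and LRPPRC, a protein that stabilises mitochondrial messenger RNAs, had 828, 536 and 628 CPM. C12orf65, a release factor homologue, was the lowest per length at 1.57 CPM per kb, and had 8.20, 11.3 and 13.8 CPM.

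The transcription list held factors that act on mitochondrial DNA and also regulators of nuclear genes, among them YY1, GABPA and NRF1. Of its 13 genes in the table, 12 were tested and 4 varied, below the background of 67.2%. The 4 were YY1, GABPA, POLRMT and TFB2M, so the count does not describe mitochondrial transcription alone. TFAM, which packages mitochondrial DNA and starts its transcription, had 228, 200.5 and 226 CPM and did not vary beyond counting noise (chi-square test, adjusted p = 0.16). TFB2M, its partner at the promoters, had 32.4, 23.9 and 41.4 CPM. MTERF2 had 4, 3 and 0 counts. The median log2 difference of replicate 2 minus 1 was -0.19 for assembly, 0.06 for translation factors and -0.11 for this mixed transcription list, beside the members' -0.80. It was -0.60 for the mitoribosomal proteins with other symbols, -0.78 for the 2 ribosomal RNAs and -1.65 for the respiratory chain genes. No test of these list medians was made.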

How the data were processed

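Total RNA was sequenced for 3 OCI-Ly10 libraries, all from MZ1-treated cells. The authors deposited a table of raw counts per gene and a table of log2 CPM values. STAR, edgeR and hg38 are named per the submitters' processing notes. The sources used here do not give the annotation release, the strand setting or the treatment of shared reads.

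From the counts, TMM factors (edgeR 4.0.16, R 4.3.3) and CPM were computed, with a pseudocount of 0.5 CPM on the log2 scale and of 0.01 CPM per kb. With 1 labelled group there is no contrast for a quasi-likelihood test. Genes whose mean count reached 10 were tested by a chi-square test over the 3 libraries and by exact two-sided binomial tests of library pairs (scipy 1.17.1), with Benjamini-Hochberg adjustment over the whole table at 0.05. The tests take libraries as Poisson samples, so they measure counting noise only, and they were tested on simulated data, where small changes of genes with low counts were mostly missed. The deposited log2 values served as an alternative, beside DESeq2 1.42.0 size factors, column totals, other filters, thinning and leaving out each library.

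The rule for members uses symbols alone, but the gene family and the lists were chosen with earlier results of these data known. Members were named by rule: the 8 highest and 6 lowest per kb, the 6 largest and 4 smallest SD of log2 CPM among members with a mean count of at least 50, those under 1 CPM, the extremes of each role list, the S18 relatives and MRPS36. Some other members were named outside this rule, for motif matches, rank by principal transcript or same-strand cover. The remaining members and the neighbouring genes are marked as chosen with their values in view. Roles and subunits are background knowledge. Gene positions are those of GENCODE release 29, and motif positions are counted from RefSeq starts. Protein sequences were not used here. One marker gene is not reported here.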

Additional observations from a re-analysis of the deposited data

How the results depend on the processing

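The median log2 differences of the 78 members kept their direction under all alternatives: -0.49 to -0.86 for replicate 2 minus 1, -0.15 to -0.42 for replicate 3 minus 1 and 0.23 to 0.63 for replicate 3 minus 2. The alternatives included the deposited log2 values, DESeq2 size factors, column totals, other pseudocounts and the subtraction of the GC bin median. Leaving out the members over 50% covered on the same strand was added after seeing the data. With column totals, 36 of 73 members were lower in replicate 2 than in 1, against 25.7% of all genes.

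Among members with no opposite-strand overlap, 31 of 45 varied between libraries and 23 were lower in replicate 2 than in 1. The shares were 68.9%, against 67.2% of all genes, and 51.1%, against 33.8%. The filter was applied to members only, so the shares over all genes include genes with such an overlap. Leaving out 1 library gave 23 to 47 varying members: 23 of 69 without replicate 1 (33.8% of all genes), 33 of 74 without replicate 2 (45.2%) and 47 of 73 without replicate 3 (56.2%). The large minus small subunit difference of -0.02 was -0.12 with principal transcript lengths, -0.21 without opposite-strand overlap and -0.12 without the members over 50% covered. The cause was not tested. The members' mean share of counts, 0.306%, was 0.358% without the mitochondrial chromosome, whose counts leave the denominator. Of 140 recomputed mean levels of the 28 named members, 9 moved by over 1.5-fold, all on leaving out a library, in MRPS2, MRPL23, MRPL28, MRPL41 and MRPL46. On the log2 scale MRPS2 went from 4.05 to 3.25 without replicate 1 and 4.77 without replicate 2, MRPL23 from 4.08 to 3.38 and 4.81, and MRPL41 from 0.48 to -0.32 and 1.17. MRPL28 went from 4.97 to 5.61 without replicate 2, and MRPL46 from 1.77 to 2.50 without replicate 2 and 1.14 without replicate 3. No paired analysis was possible because the libraries form 1 group. Replicates 2 and 3 had far fewer counts than replicate 1, so differences of members with low counts were often not detectable.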
